A study of Mus musculus with 12 samples.

Results

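Tubulin isotypes are the separate gene products of the alpha- and beta-tubulin families, and 10 of them were followed here in mouse dorsal root ganglia after nerve injury: the alpha genes Tuba1a, Tuba1b, Tuba1c and Tuba4a and the beta genes Tubb2a, Tubb2b, Tubb3, Tubb4a, Tubb5 and Tubb6. They were chosen by gene symbol, with no threshold on any value but with earlier results of these data known, and each of the 10 was found among the 23238 distinct symbols of the deposited count files. Each also passed the filter on low counts, which left 15036 genes for testing. The study compared axon regeneration between the sexes, and its 12 libraries were made from lumbar L3-L5 dorsal root ganglia of C57BL/6 mice at postnatal week 8. The 4 groups of 3 libraries were Female SNI, Female sham, Male SNI and Male sham, where SNI stands for sciatic nerve injury and sham for the operation without it. No transgene or drug is named for any group. The sources used here give neither the way the nerve was injured nor the interval between operation and dissection. They do not say whether the 3 libraries of a group came from separate animals either, so each p-value refers to the spread between libraries, which may be technical.

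An alpha and a beta subunit form the dimer from which microtubules are built, and the isotypes of each family differ mainly in their C-terminal tails, where enzymes add and remove modifications. Axons contain dense arrays of microtubules that carry transport and hold the axon's shape, and a sensory neuron that regrows its axon has to supply tubulin from its cell body in the ganglion. Tuba1a and Tubb2b are textbook genes of growing neurons, Tubb3 is the neuron-specific beta isotype recognised by the TUJ1 antibody, and Tubb6 is a divergent beta isotype that is low in most tissues.

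**Figure D1:**
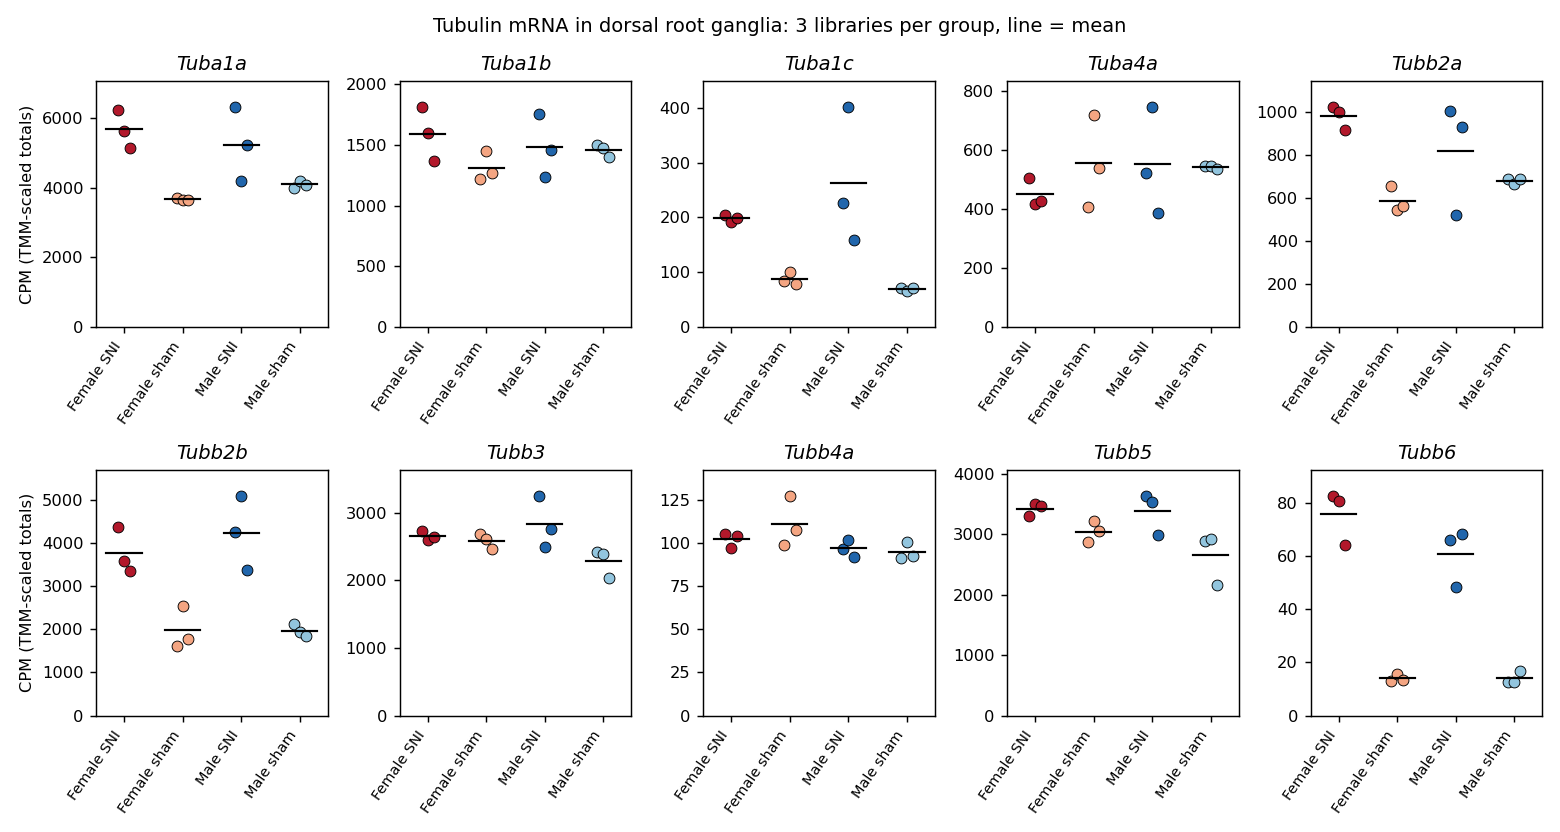
Level of each of the 10 tubulin isotypes in every library, in CPM (counts scaled to a common library total; linear axes that start at 0 and differ between genes), with SNI libraries left of sham libraries in each sex; points are libraries and lines are group means (n = 3 each). For Tuba1c, Tubb2b, Tubb5 and Tubb6 every SNI point lies above every sham point in both sexes, and Tubb6 lies at 48.3 to 82.5 CPM in SNI libraries, against 12.5 to 16.7 CPM in sham libraries.

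Levels are given as CPM on library totals scaled by the trimmed mean of M-values (TMM). The libraries were made with a 3′ end kit that yields 1 read per transcript end, so CPM can be set side by side between genes without dividing by length. Total counts were 12476606 to 15520746 per library, and each library had 15961 to 16834 genes with at least 1 count. The ribosomal RNA row Rn45s took 6.14 to 11.2% of the counts. Atf3, a transcription factor induced in injured sensory neurons, had 275 to 361 CPM in the SNI libraries and 43.6 to 56.7 CPM in the sham libraries; every SNI library lay above every sham library. Sensory neuron markers were present in every library. Male SNI 2 and Female sham 2 stood apart from the other libraries, with scores of 75.5 and 38.0 on the first principal component against -27.0 to 2.67 in the remaining libraries, so values that 1 of them moves markedly are also given without it.

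In the RefSeq annotation of GRCm38.p6 the alpha genes Tuba1a, Tuba1b and Tuba1c lie together on chromosome 15 and Tuba4a on chromosome 1. Of the beta genes, Tubb2a and Tubb2b are neighbours on chromosome 13 (Tubb2a at chr13:34074278-34078008 and Tubb2b at chr13:34127008-34130354, both on the minus strand), Tubb3 is on chromosome 8, and Tubb4a and Tubb5 are on chromosome 17. The promoters of the alpha cluster on chromosome 15 and of Tubb2a are shown because their genes changed after injury or are the direct neighbours of genes that did. Tuba1a, Tuba1c and Tubb2a were higher after injury, and Tuba1b, which lies beside Tuba1a in the cluster, did not pass the test. RefSeq promoter windows of GRCm38.p6, 300 bases each, matched 8 of the 10 genes by symbol. Tubb2b and Tubb6 had no entry. The 250 bases before the start are printed 5′ to 3′ on the gene's strand, and capitals mark a match to the cyclic AMP response element TGACGTCA.
Tuba1a, chr15:98953502-98953751, minus strand: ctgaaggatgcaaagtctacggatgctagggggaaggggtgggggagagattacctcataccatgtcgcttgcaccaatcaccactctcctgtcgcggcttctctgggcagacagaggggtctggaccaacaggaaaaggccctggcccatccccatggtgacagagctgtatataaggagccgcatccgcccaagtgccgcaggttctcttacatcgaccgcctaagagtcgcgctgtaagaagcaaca
Tuba1b, chr15:98934391-98934640, minus strand: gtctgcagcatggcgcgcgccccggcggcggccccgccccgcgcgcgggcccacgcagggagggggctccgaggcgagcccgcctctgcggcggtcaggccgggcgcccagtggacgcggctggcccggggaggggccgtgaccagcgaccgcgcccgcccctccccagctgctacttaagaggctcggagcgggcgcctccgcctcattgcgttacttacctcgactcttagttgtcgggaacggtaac
Tuba1c, chr15:99029641-99029890, plus strand: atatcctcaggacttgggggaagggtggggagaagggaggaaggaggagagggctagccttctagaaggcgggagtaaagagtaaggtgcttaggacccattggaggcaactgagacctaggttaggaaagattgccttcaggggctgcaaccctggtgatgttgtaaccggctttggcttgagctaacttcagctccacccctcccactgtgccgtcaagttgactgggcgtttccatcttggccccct
Tubb2a, chr13:34078009-34078258, minus strand: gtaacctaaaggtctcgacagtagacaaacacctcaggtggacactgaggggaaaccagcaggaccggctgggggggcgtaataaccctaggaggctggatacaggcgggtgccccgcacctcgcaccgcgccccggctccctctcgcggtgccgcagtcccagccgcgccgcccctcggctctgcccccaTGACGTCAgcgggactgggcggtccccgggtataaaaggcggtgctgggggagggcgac

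The whole 300-base windows were searched on both strands for 5 motifs, none of which contains another. TGACGTCA was found in 1 of the 8 tubulin promoters, that of Tubb2a, at position -59 from the start, and in 1.8% of the 32544 promoters of the table. The AP-1 motif TGANTCA was found in 0 of the 8 and in 7.79% of all promoters. The STAT motif TTCNNNGAA was found in 0 of the 8 and in 8.33% of all promoters. The SOX motif ACAAAG was found in 1, that of Tubb5, and in 18.7% of all promoters. The GC box GGGCGG was found in 6 of the 8 and in 35.9% of all promoters; it was absent from the windows of Tuba1c and Tubb4a. These matches describe the letters of the windows and say nothing of the binding of any factor in these ganglia.

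In the test of injury averaged over the sexes, 5 of the 10 isotypes were higher after SNI and 0 were lower, at an adjusted p below 0.05 in edgeR's quasi-likelihood test. Among all genes tested, 3.78% were called higher and 2.73% lower. The median log2 change of the 10 isotypes was 0.38, beside 0.0031 over all genes tested. The 5 were Tubb6, Tuba1c, Tubb2b, Tubb2a and Tuba1a. Tubb6, with a 4.82-fold change, ranked 4366 of 15036 genes by mean CPM, while Tuba1a, with a 1.41-fold change, ranked 9. In bulk tissue fewer cells of a type and less RNA per cell cannot be told apart, and this holds for each change given here. Every SNI library lay above every sham library in both sexes for 4 of the 10, a pattern shown by 3.66% of all genes tested.

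Tuba1a encodes the main alpha isotype of developing and growing neurons. It had 6229, 5624 and 5144 CPM in the Female SNI libraries, against 3707, 3648 and 3648 CPM in the Female sham libraries. In males it had 6301, 4188 and 5212 CPM after SNI, against 3991, 4200 and 4085 CPM after sham. The female groups did not overlap, and in males the lowest SNI value, that of Male SNI 2, lay within the sham range. Averaged over the sexes, the log2 change was 0.49 ± 0.10 (SE, adjusted p = 0.00714), with 0.63 ± 0.14 in females (adjusted p = 0.0256) and 0.36 ± 0.14 in males (adjusted p = 0.245). The female change passed in 6 of the 12 fits that left out 1 library, and the adjusted p reached 0.137 among the others. The male change was 0.20 without Male SNI 1 and 0.49 without Male SNI 2. It passed in 1 of the 12 fits that left out 1 library, that without Male SNI 2 (adjusted p = 0.0113), and the adjusted p reached 0.508 among the others.

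Tuba1b, a broadly expressed alpha isotype and the nearest of the other isotypes to Tuba1a on the chromosome, had 1810, 1600 and 1370 CPM in the Female SNI libraries, against 1220, 1450 and 1271 CPM in the Female sham libraries. Its male values were 1758, 1232 and 1456 CPM after SNI, against 1503, 1474 and 1399 CPM after sham. The groups overlapped in both sexes. Its averaged log2 change of 0.15 ± 0.10 did not pass the test (adjusted p = 0.493, 95% interval -0.07 to 0.37). It was 0.079 without Male SNI 1, and without Male SNI 2 and Female sham 2 it was 0.25 with an adjusted p of 0.0364. It passed in 0 of the 12 fits that left out 1 library.

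Tuba1c, the third alpha gene of the chromosome 15 cluster, is expressed in many tissues. It stood at 204, 192 and 199 CPM in the Female SNI libraries, against 82.9, 100.1 and 78.2 CPM in the Female sham libraries. In males the SNI libraries had 226, 401 and 159 CPM, against 70.3, 65.1 and 71.6 CPM in the sham libraries. No SNI library overlapped a sham library, and Male SNI 2 was the highest of the 12. Averaged over the sexes, Tuba1c had a log2 change of 1.56 ± 0.17 (adjusted p = 9.06e-05), a 2.94-fold increase. It passed in females (1.19 ± 0.24, adjusted p = 0.0175) and in males (1.92 ± 0.25, adjusted p = 0.000709), and without Male SNI 2 the male change was 1.48. Of the 12 fits that left out 1 library, the female change passed in 7 and the male change in 12. The adjusted p of the female change reached 0.0978 among the others.

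Tuba4a encodes an alpha isotype whose C-terminus lacks the encoded tyrosine of the other main alpha isotypes. Its values were 506, 418 and 427 CPM in the Female SNI libraries, against 406, 721 and 539 CPM in the Female sham libraries. In males they were 523, 746 and 386 CPM after SNI, against 545.0, 545 and 537 CPM after sham. The high values were those of Female sham 2 and Male SNI 2, the pair of libraries that stood apart, and the groups overlapped in both sexes. The averaged log2 change was -0.14 ± 0.16 (adjusted p = 0.73), and it was -0.27 without Male SNI 2, -0.040 without Male SNI 3 and -0.023 without Female sham 2. The counts of Tuba4a are uncertain, since each of the last 400 bases of its exons in GENCODE vM21 also lies in exons of Stk16 on the opposite strand and the strand setting of the counting is not stated. Stk16 was also highest in Female sham 2 and Male SNI 2, at 511 and 551 CPM, with 300 to 406 CPM in the other libraries; whether the genes share reads was not tested.

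Within each group the alpha genes kept the order Tuba1a, Tuba1b, Tuba4a and Tuba1c by mean CPM. The order also held within every single library. The ranges of neighbours did not overlap, except in Male SNI. There the lowest Tuba4a value (386 CPM, in Male SNI 3) lay below the highest Tuba1c value (401 CPM, in Male SNI 2).

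Among the beta isotypes, Tubb6 changed by the most of the 10 genes. It had 82.5, 80.5 and 64.1 CPM in the Female SNI libraries, against 13.0, 15.8 and 13.5 CPM in the Female sham libraries. The male SNI libraries had 66.0, 48.3 and 68.1 CPM, against 12.7, 12.5 and 16.7 CPM in the male sham libraries. Each SNI value lay far above each sham value, with no overlap in either sex. Averaged over the sexes, the log2 change was 2.27 ± 0.13 (adjusted p = 1.83e-07), with 2.42 ± 0.19 in females and 2.12 ± 0.19 in males, which both passed the test (adjusted p = 8.49e-06 in females and 2.84e-05 in males). Leaving out any of the 12 libraries left the averaged change between 2.22 and 2.35 and the call in place. Despite this rise Tubb6 remained the least abundant of the 10 isotypes in each group's mean.

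Tubb2b, a class II beta isotype of neurons, had 4391, 3594 and 3350 CPM in the Female SNI libraries, against 1616, 2552 and 1768 CPM in the Female sham libraries. In males it had 4260, 5098 and 3383 CPM after SNI, against 2137, 1937 and 1837 CPM after sham. The groups did not overlap in either sex, with Female sham 2 the highest of the sham libraries and Male SNI 2 the highest of all. The averaged log2 change was 1.02 ± 0.13 (adjusted p = 0.000307), a 2.03-fold increase, and it passed in females (0.93 ± 0.19, adjusted p = 0.0154) and in males (1.11 ± 0.19, adjusted p = 0.00568). Of the 12 fits that left out 1 library, the female change passed in 8 and the male change in 12. The adjusted p of the female change reached 0.0984 among the others. In the means of both SNI groups Tubb2b was the most abundant beta isotype, at 3779 ± 544 CPM in females and 4247 ± 858 CPM in males (SD, n = 3). Tubb5 followed it at 3423 ± 109 and 3383 ± 348 CPM, within the spread of the Tubb2b libraries. Within single SNI libraries Tubb2b lay above Tubb5 in all but Female SNI 3, which had 3350 CPM of Tubb2b and 3469 CPM of Tubb5. In the sham means Tubb2b came after Tubb5 and Tubb3, with 1979 ± 503 CPM in females and 1970 ± 153 CPM in males. There the ranges of Tubb2b and Tubb3 overlapped in both sexes, and those of Tubb3 and Tubb5 overlapped in males. Within every single sham library, though, the order was Tubb5, Tubb3 and Tubb2b.

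Tubb2a, the class II partner of Tubb2b on chromosome 13, had 1024, 1003 and 920 CPM in the Female SNI libraries, against 658, 544 and 563 CPM in the Female sham libraries. Its male values were 1006, 522 and 931 CPM after SNI, against 691, 665 and 689 CPM after sham. The female groups were separate, while in males Male SNI 2 fell below every sham library and the other SNI libraries lay above them. The averaged log2 change of 0.50 ± 0.13 passed narrowly (adjusted p = 0.0372). It passed in 2 of the 12 fits that left out 1 library, those without Female sham 1 or Male SNI 2, and the adjusted p reached 0.098 among the others. In females the change was 0.74 ± 0.19 (adjusted p = 0.0522) and in males 0.27 ± 0.19 (adjusted p = 0.563). The male change was 0.090 without Male SNI 1, 0.17 without Male SNI 3 and 0.51 without Male SNI 2. It passed in the last of these (adjusted p = 0.00938), which was 1 of the 12 fits, and the adjusted p reached 0.874 among the others.

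Tubb3, the neuronal beta isotype, had 2731, 2598 and 2648 CPM in the Female SNI libraries, against 2689, 2610 and 2460 CPM in the Female sham libraries, which overlapped. In males it had 3247, 2500 and 2757 CPM after SNI, against 2413, 2395 and 2035 CPM after sham, and these groups were separate. The averaged log2 change was 0.18 ± 0.08 (adjusted p = 0.287, 95% interval -0.01 to 0.36). The male change was 0.31 ± 0.12 (adjusted p = 0.238). Without Male SNI 1 the male change was 0.20 and the averaged change 0.12. Without Male SNI 2 they were 0.40 (adjusted p = 0.0441) and 0.22 (adjusted p = 0.0472). That was the 1 of the 12 fits in which either passed, and the adjusted p reached 0.555 for the male and 0.497 for the averaged change among the others.

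Tubb5, the broadly expressed class I isotype, had 3298, 3501 and 3469 CPM in the Female SNI libraries, against 2866, 3213 and 3046 CPM in the Female sham libraries. Its male values were 3632, 3532 and 2986 CPM after SNI, against 2888, 2920 and 2157 CPM after sham. Every SNI library lay above every sham library of its sex, but by little, and the averaged log2 change of 0.26 ± 0.09 did not pass the test (adjusted p = 0.131, 95% interval 0.06 to 0.46). Without Male SNI 2 and Female sham 2 it was 0.27 with an adjusted p of 0.034, but it passed in 0 of the 12 fits that left out 1 library. Tubb4a, a brain isotype also expressed by myelinating glia of the central nervous system, had 97.1 to 105 CPM in the Female SNI libraries, against 98.9 to 127 CPM in the Female sham libraries. In males it had 91.9 to 102 CPM after SNI, against 91.4 to 101 CPM after sham, and its averaged log2 change was -0.05 ± 0.08 (adjusted p = 0.855, 95% interval -0.23 to 0.14).

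**Figure D2:**
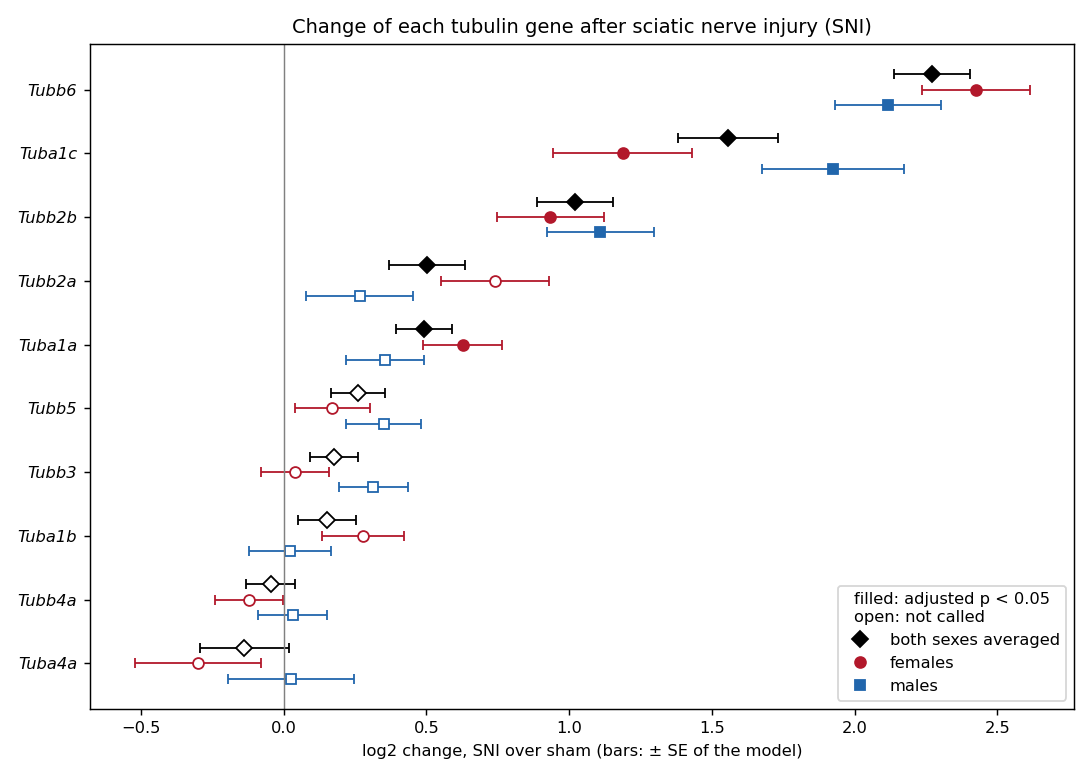
Log2 change of each isotype, SNI over sham, averaged over the sexes, in females and in males, with bars of ± 1 SE from edgeR's fit to all 12 libraries; filled symbols mark an adjusted p below 0.05. Tubb6 (2.27), Tuba1c (1.56) and Tubb2b (1.02) passed in all 3 contrasts, and Tuba4a, Tubb4a, Tuba1b, Tubb3 and Tubb5 in 0 of the 3.

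Sequence shared between isotypes limits how far these genes can be told apart. Of the 50-base windows in the last 400 transcript bases, 43.9% in Tuba1a, 53.3% in Tuba1b and 59.3% in Tuba1c also occur in another gene's transcripts, among them each other's. In Tubb2a 31.9% do, shared with Tubb2b and Tubb2a-ps2, and in the other 6 isotypes 0% do. In the last 200 bases, nearer the end that the kit reads, 8 of 151 windows were shared in Tuba1c and 0 of 151 in each of the other 9. The sources used here do not say how multiply mapped reads were counted. The split of counts among Tuba1a, Tuba1b and Tuba1c, and that between Tubb2a and the genes it shares windows with, are uncertain to that extent.

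Summed over the 16 alpha- and beta-tubulin rows of the files, tubulin made up 1.74 to 2.13% of all counts in the SNI libraries and 1.40 to 1.49% in the sham libraries, with no overlap. The sum was 19346 ± 1398 CPM in Female SNI, against 14403 ± 1010 CPM in Female sham (SD, n = 3 each). It was 19467 ± 1909 CPM in Male SNI, against 14271 ± 826 CPM in Male sham. The ratio of the SNI to the sham level was 1.34 in females and 1.36 in males. Alpha genes together were 1.41-fold higher in females and 1.22-fold higher in males, and beta genes 1.30-fold in females and 1.47-fold in males. Male SNI 2 had the lowest alpha sum of its group, at 6567 CPM against 8812 and 7214 CPM in Male SNI 1 and 3. The folds were not computed without that library, so they do not show that the sexes differ in alpha or beta genes. The 10 isotypes held 96.3 to 98.0% of the alpha- and beta-tubulin counts.

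Most of the added tubulin counts came from abundant genes. Of the female difference of 4943 CPM, Tuba1a made up 40.4% and Tubb2b 36.4%. Of the male difference of 5196 CPM, Tubb2b made up 43.8%, Tuba1a 22.0%, Tubb5 14.0% and Tubb3 10.7%. These male parts include Male SNI 2, which had the highest Tubb2b (5098 CPM) and the lowest Tuba1a (4188 CPM) of its group. They were not computed without that library, so they do not show that the sexes differ in which gene contributed most. Tubb6, with the highest fold, made up 1.25% of the difference in females and 0.901% in males.

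The makeup of the tubulin pool, as each isotype's share of all alpha- and beta-tubulin counts in a library, was compared by an exact two-sided permutation test of SNI and sham labels within each sex, for which the smallest possible p is 0.005. Of the 10 shares, 3 were higher after SNI and 5 were lower at an unadjusted p below 0.05. These shares sum to nearly the whole in each library, so the rise of one lowers others whose own level did not fall. Tubb2b took 21.1, 18.8 and 18.5% of the pool in the Female SNI libraries, against 11.8, 16.4 and 12.7% in the Female sham libraries. In males it took 19.8, 26.8 and 19.0% after SNI, against 14.5, 13.1 and 13.8% after sham. The groups were separate in both sexes, and the mean difference was 6.94 percentage points (exact p = 0.005). Male SNI 2 held the highest share, and without it the difference was 5.71 points.

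The shares of Tuba1c and Tubb6 were also higher in every SNI library than in every sham library of the same sex. Tuba1c gained 0.644 points and Tubb6 0.254 points (exact p = 0.005 for each). Male SNI 2 held the highest Tuba1c share, and without it the Tuba1c difference was 0.456 points. The mean Tubb6 share was 0.391% in Female SNI, against 0.0978% in Female sham, and 0.314% in Male SNI, against 0.0990% in Male sham. The share was lower after SNI by 1.77 points for Tuba1b and 0.203 points for Tubb4a (exact p = 0.005 for each), with no overlap in either sex. It was also lower by 2.81 points for Tubb3 (exact p = 0.01), 1.23 points for Tuba4a (exact p = 0.015) and 2.25 points for Tubb5 (exact p = 0.035). For each of these genes the groups were separate in females and overlapped in males. The mean Tubb3 share was 13.8% in Female SNI, against 18.0% in Female sham, and 14.6% in Male SNI, against 16.0% in Male sham. The Tubb5 difference stayed past the threshold in 5 of the 12 fits that left out 1 library, and that of Tuba4a did not when taken within the alpha family (-2.68 points, exact p = 0.065). The Tuba1a share differed by 0.90 points (exact p = 0.61), with 0.288 points without Male SNI 3, 0.298 without Male SNI 1 and 2.11 without Male SNI 2 (exact p = 0.05), and that of Tubb2a by 0.198 points (exact p = 0.73). In both genes the means of the sexes moved in opposite directions, with separate groups in females and overlapping groups in males. Tuba1a averaged 29.3% in Female SNI, against 25.6% in Female sham, and 26.8% in Male SNI, against 28.7% in Male sham. For Tubb2a the means were 5.08 against 4.11% in females and 4.21 against 4.79% in males. Male SNI 2 had the lowest share of the male libraries, at 22.0% for Tuba1a and 2.74% for Tubb2a. Male SNI 1 and 3 had 29.2 and 29.3% for Tuba1a, above the male sham mean. For Tubb2a they had 4.67 and 5.23%, on either side of it. The lower male means after SNI thus rest on Male SNI 2, and the opposite directions do not show that the sexes differ. Without Male SNI 2 the averaged Tubb2a difference was 0.566 points.

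Within the beta family alone, Tubb2b made up 32.9 ± 3.0% in Female SNI, against 22.3 ± 3.7% in Female sham, and 35.4 ± 4.8% in Male SNI, against 24.4 ± 1.3% in Male sham (SD, n = 3 each). Tubb3 made up 23.3 ± 0.8% in Female SNI, against 29.6 ± 2.7% in Female sham, and 23.9 ± 3.3% in Male SNI, against 28.1 ± 0.2% in Male sham. The difference was 10.8 points for Tubb2b and -5.30 points for Tubb3 (exact p = 0.005 for each). Within the alpha family Tuba1a made up 71.7 ± 0.4% in Female SNI, against 65.3 ± 3.4% in Female sham, and 69.2 ± 4.7% in Male SNI, against 66.4 ± 0.9% in Male sham. Its difference within the alpha family was 4.57 points (exact p = 0.03), unlike its share of the whole pool.

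**Figure D3:**
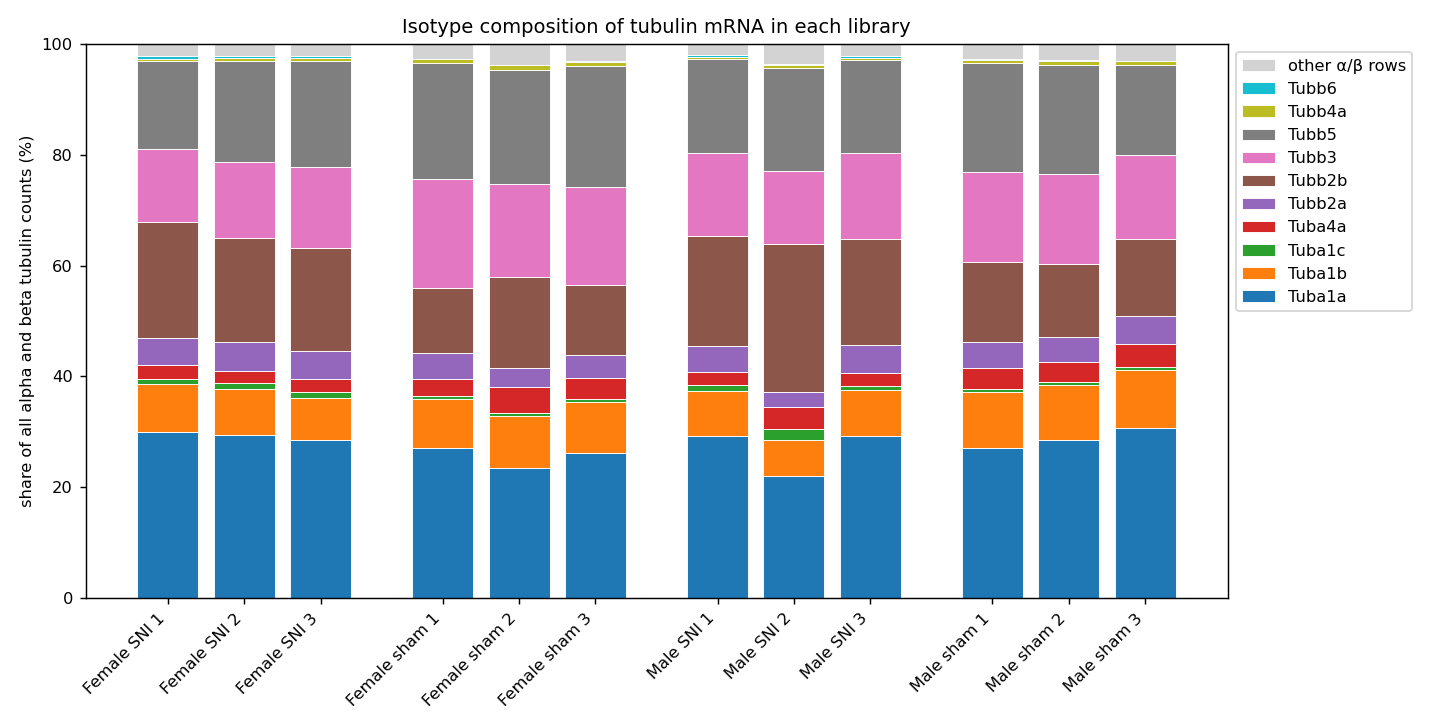
Share of each isotype in the alpha- and beta-tubulin counts of each library, in percent, with SNI libraries left of sham libraries in each sex. The Tubb2b part is taller in every SNI library (18.5 to 26.8%) than in every sham library (11.8 to 16.4%), and the Tubb3 part averages 13.8 and 14.6% in Female and Male SNI, against 18.0 and 16.0% in Female and Male sham.

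The series was made to compare the sexes, and each isotype was tested for a difference between the change in males and the change in females. The share of all genes called in this interaction was 0%, with 0 of the 10 isotypes, and DESeq2 and limma also called 0 genes. At an unadjusted p below 0.05 there were 7.32% of all genes and 1 of the 10 isotypes. That isotype was Tuba1c, whose change was larger in males by 0.74 ± 0.34 on the log2 scale (adjusted p = 0.647, 95% interval 0.01 to 1.47). Tubb2a differed by -0.47 (95% interval -1.04 to 0.10), Tubb6 by -0.31 (-0.86 to 0.24), Tubb3 by 0.27 (-0.09 to 0.64) and Tuba1a by -0.27 (-0.69 to 0.15). For Tubb2b the difference was 0.17 (-0.39 to 0.74). Without Male SNI 2 the difference was 0.29 for Tuba1c, -0.24 for Tubb2a, -0.17 for Tubb6 and -0.14 for Tuba1a, and without Male SNI 1 it was -0.43 for Tuba1a and 0.16 for Tubb3. For Tubb2b it was -0.052 without Female sham 2. Several of these intervals hold sizeable differences in at least 1 direction, so the data do not show that the sexes respond alike.

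Between the sexes in sham ganglia, 0 of the 10 isotypes were called, and 0.0399% of all genes tested were. The male minus female log2 differences in sham were -0.33 to 0.21, and 0 of the 10 had an unadjusted p below 0.05; the share among all genes was 4.58%. In the tests within each sex, 4 of the 10 isotypes were called higher in females, where 1.6% of all genes were, and 3 of the 10 in males, where 1.65% of all genes were. The female SNI values lay above all female sham values for 6 of the 10 isotypes (13.1% of all genes) and the male values likewise for 5 of the 10 (9.08% of all genes). The number of isotypes called in females, 4 with all 12 libraries, was 1 without Female SNI 1, Female SNI 2, Female sham 1 or Female sham 3. It was 2 without Female SNI 3. Those fits called 155 to 240 of all genes in females, beside 435 with all 12 libraries. The number of isotypes called in males, 3 with all 12 libraries, was 6 without Male SNI 2. Over the fits that left out 1 library, 137 to 601 of all genes were called in males, beside 321 with all 12. A call in one sex and not in the other is therefore no sign of a difference between the sexes.

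The pair of libraries that stood apart touched the isotypes unevenly. Within Male SNI, library 2 was highest for Tuba1c, Tuba4a, Tubb2b and Tubb4a and lowest for Tuba1a, Tuba1b, Tubb2a, Tubb3 and Tubb6. It was also highest within its group for summed satellite glia markers, at 8505 CPM against 5480 CPM in the lowest Male SNI library, and for summed sensory neuron markers, at 28510 against 19870 CPM. Without Male SNI 2 and Female sham 2, 8 of the 10 isotypes were called higher in the averaged test, Tuba1b, Tubb3 and Tubb5 in addition to the 5. In that fit 12.1% of all genes were called in either direction, against 6.52% with all 12 libraries. A fit with limma's sample quality weights, which gives less weight to libraries that deviate, also called 8 isotypes, with 13.4% of all genes called. The count of isotypes thus rose together with the count over all genes.

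Markers of cell types are given here as measured in the averaged test, in which 3.78% of all genes tested were called higher and 2.73% lower. Of 11 macrophage markers, 9 were called higher, with a median log2 change of 1.14. Their sum was 307 to 389 CPM in Female SNI, against 132 to 180 CPM in Female sham. In males the macrophage sum was 269 to 436 CPM after SNI, against 116 to 163 CPM after sham. Of 12 sensory neuron markers, 4 were called lower and 1 (Elavl3) higher, with a median of -0.29, and their sum was 19510 to 20350 CPM in Female SNI, against 22930 to 30510 CPM in Female sham. In males the neuronal sum was 19870 to 28510 CPM after SNI, against 25090 to 26890 CPM after sham. The part of these cells in the tubulin changes was not tested.

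Dividing cells need tubulin for the spindle, and of 9 tested markers of dividing cells 0 were called in the averaged test. The sum over the whole list of 10 was 67.7 to 99.6 CPM in the SNI libraries and 63.5 to 88.3 CPM in the sham libraries. Of 8 satellite glia markers 1 was called higher, beside 3.78% of all genes tested. Among the Schwann cell, endothelial, fibroblast, mural cell and skeletal muscle markers 0 were called. The skeletal muscle sum was 1582 CPM in Male SNI 1 and 6.33 to 72.8 CPM in the other 11 libraries, and its part in the tubulin values was not tested. In each library at most 1 gene of any of these marker lists was at 0.

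The rest of the tubulin superfamily did not pass the averaged test in either direction. Of the other 6 alpha and beta rows, Tubb4b and Tuba8 had enough counts to be tested. Tubb4b, a ubiquitous class IV isotype, averaged 417 ± 43 CPM in Female SNI, against 459 ± 111 CPM in Female sham, and 494 ± 167 CPM in Male SNI, against 412 ± 21 CPM in Male sham (SD, n = 3 each). Its log2 change was 0.06 ± 0.15 (adjusted p = 0.894), and that of Tuba8 was 0.16 ± 0.40 (adjusted p = 0.905). Tubg1, the gamma-tubulin that nucleates microtubules, had a log2 change of -0.28 ± 0.09 (adjusted p = 0.0972). The values were -0.28 ± 0.18 for Tubg2, -0.41 ± 0.47 for Tubd1 and 0.28 ± 0.60 for Tube1 (adjusted p = 0.476, 0.733 and 0.878).

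**Figure D4:**
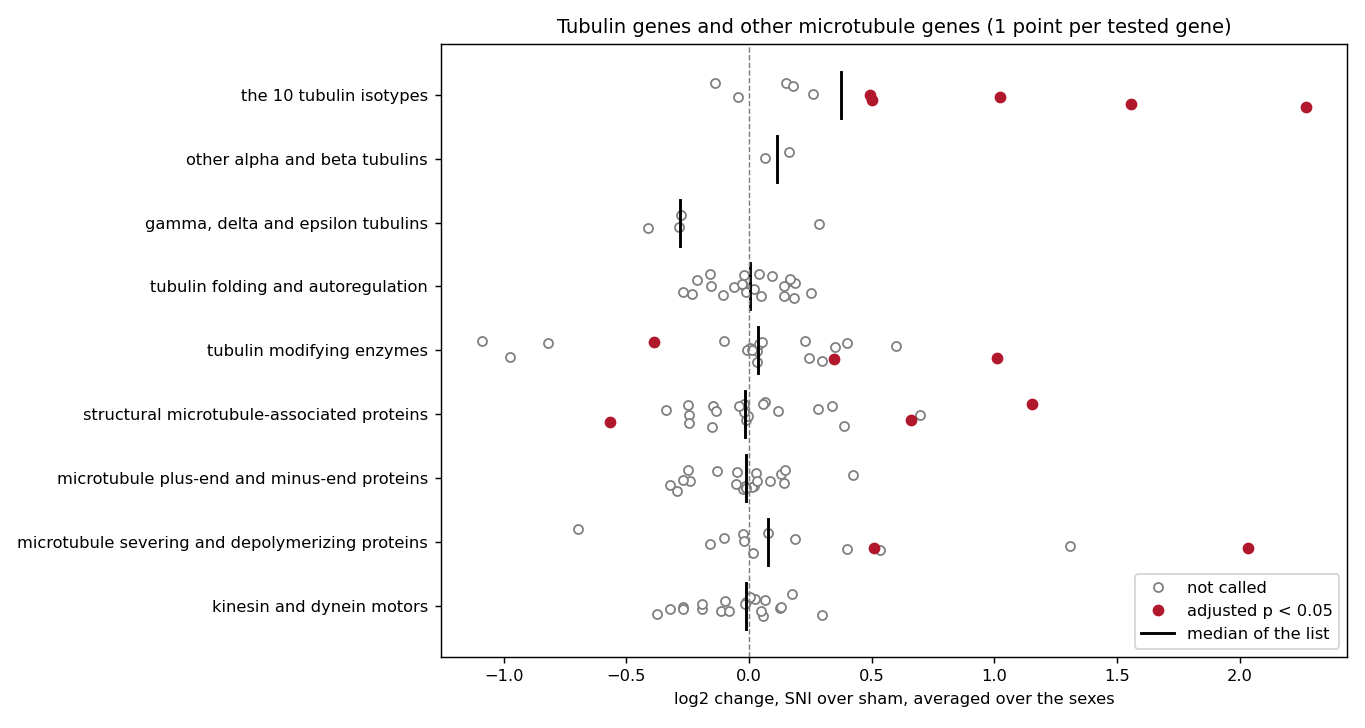
Log2 change, SNI over sham averaged over the sexes, of every tested gene in the 10 isotypes and in 8 lists of microtubule genes; each point is a gene, vertical lines are list medians, and filled points have an adjusted p below 0.05 in edgeR's quasi-likelihood test. The isotypes have 5 called genes of 10, and no other list has more than 3.

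Genes that fold, modify, bind or move along tubulin were counted from 6 further lists, in the averaged test, in which 3.78% of all genes tested were called higher and 2.73% lower. Of 22 genes for folding and autoregulation of tubulin, which include the chaperonin and prefoldin subunits and the tubulin cofactors, 0 were called, and the median log2 change was 0.0032. Cct7, the most abundant of them, averaged 462 ± 24 CPM in Female SNI, against 539 ± 33 CPM in Female sham, and 531 ± 52 CPM in Male SNI, against 475 ± 50 CPM in Male sham. Of 20 plus-end and minus-end binding proteins and 20 kinesin and dynein motors, 0 were called in either list in the averaged test. Dst, a large linker of microtubules and other filaments, and Kif1b, a motor of axonal transport, were their most abundant genes, with log2 changes of -0.05 ± 0.12 (adjusted p = 0.897) and -0.10 ± 0.08 (adjusted p = 0.57).

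Of 13 severing and depolymerizing proteins, 2 were called higher and 0 lower (background 3.78% higher and 2.73% lower), and both belong to the stathmins, which bind tubulin dimers. Stmn4 averaged 167 ± 13 CPM in Female SNI, against 41.0 ± 7.5 CPM in Female sham, and 167 ± 24 CPM in Male SNI, against 40.6 ± 2.7 CPM in Male sham, a log2 change of 2.04 ± 0.11 (adjusted p = 1e-07). Stmn2, an abundant stathmin of growing axons, averaged 3212 ± 131 CPM in Female SNI, against 2106 ± 119 CPM in Female sham, and 3056 ± 247 CPM in Male SNI, against 2302 ± 78 CPM in Male sham. Its log2 change was 0.51 ± 0.07 (adjusted p = 0.000761), close in size to those of Tuba1a and Tubb2a.

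Of 22 structural microtubule-associated proteins, 2 were called higher and 1 lower, against the same background of 3.78% and 2.73%. Mtus2, a microtubule-binding protein, averaged 157 ± 11 CPM in Female SNI, against 72.4 ± 5.6 CPM in Female sham, and 149 ± 20 CPM in Male SNI, against 65.0 ± 4.5 CPM in Male sham (log2 change 1.15 ± 0.09, adjusted p = 2.78e-06). The relatives Map7d1 and Map7d2, which recruit kinesin to microtubules, changed in opposite directions. Map7d1 was higher by 0.66 ± 0.07 (adjusted p = 9.96e-05) and Map7d2 had a log2 change of -0.57 ± 0.10 (adjusted p = 0.00422). Map1b, the most abundant of the list at 6314 ± 379 CPM in Female SNI, against 7776 ± 1486 CPM in Female sham, had a log2 change of -0.24 ± 0.12 (adjusted p = 0.286).

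Of 20 tested tubulin-modifying enzymes, 2 were called higher and 1 lower, beside 3.78% and 2.73% of all genes. With lists of this size such counts differ from the background by fewer than 2 genes and are not a result about the lists. Agtpbp1, which removes glutamates from tubulin tails, averaged 441 ± 10 CPM in Female SNI, against 352 ± 13 CPM in Female sham, and 416 ± 37 CPM in Male SNI, against 322 ± 17 CPM in Male sham (log2 change 0.35 ± 0.07, adjusted p = 0.0112). Ttll7, which adds glutamates to beta-tubulin, averaged 646 ± 32 CPM in Female SNI, against 846 ± 74 CPM in Female sham, and 672 ± 121 CPM in Male SNI, against 880 ± 31 CPM in Male sham (log2 change -0.39 ± 0.09, adjusted p = 0.02). Vash2, which removes the C-terminal tyrosine of alpha-tubulin, had a log2 change of 1.01 ± 0.24 (adjusted p = 0.0198) at 7.14 ± 1.48 CPM in Female SNI, against 3.76 ± 1.04 CPM in Female sham, and 8.07 ± 0.92 CPM in Male SNI, against 3.75 ± 1.58 CPM in Male sham.

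Genes with the most similar profile over the 12 libraries were named for Tubb6, Tuba1a and Tubb3. The measure was the root mean square distance between log2 CPM profiles, each centred on its own mean. Candidates were 10844 genes with a mean of at least 5 CPM, from which tubulin genes had been left out. The naming is a description that gives no test. For Tubb6 the nearest were Gal (a neuropeptide, distance 0.209), Flrt3 (0.227), Atf3 (0.24), Sema6a (0.278) and Lmo7 (0.292), whose own log2 changes were 1.91 to 2.63. For Tuba1a they were Ahcy (0.0913), Fabp5 (0.0998), Prkab2 (0.112), Ufl1 (0.112) and Itgb1 (0.113), with log2 changes of 0.34 to 0.51. For Tubb3 they were Taf5 (0.0882), Fam69a (0.0906), Ptrhd1 (0.0931), Tmem158 (0.0977) and Rad9a (0.0991), with log2 changes of 0.03 to 0.17, of which 0 passed the test.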

How the data were processed

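Dorsal root ganglion RNA was measured in 12 libraries. The authors deposited a file of raw counts for each library, with 23282 rows named by gene symbol; 35 symbols stood on more than 1 row, and their 44 extra rows were summed. Per the labels' protocols, polyadenylated RNA was prepared with a QuantSeq 3′ kit and sequenced as single reads. The submitters' processing notes name Bowtie2, bedtools and mm10, with no version or role; the sources used here do not state strand, multiple mapping or duplicate handling, which leaves counts of genes that share sequence or overlap uncertain.

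The labels gave the groups. The filterByExpr function (minimum count 10) selected genes, TMM factors (0.914 to 1.07) scaled the libraries, and edgeR 4.0.16 (R 4.3.3) fitted 1 coefficient per group over all 12 libraries. Two-sided quasi-likelihood p-values received Benjamini-Hochberg adjustment over 15036 genes, with calls at an adjusted p below 0.05; the common biological coefficient of variation was 0.275. The procedure was also run on simulated counts, with the same dispersion for every gene and no library that stood apart. That run cannot show how the procedure behaves with the deviating libraries of these data. Replicates correlated at Pearson r of 0.93 to 0.986 on log2 CPM, with a chi-square per gene of 8.45 or more, so no pair looked like 1 library deposited again. Isotype shares were compared by exact permutation within sex (400 arrangements), with unadjusted p over 10 shares. Depth limits are counting error only.

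The members, lists and comparisons were chosen with earlier results of these data known. The named genes were the 10 isotypes and other tubulin rows with a mean of at least 1 CPM. Each microtubule list added up to 2 called genes with the largest increase and 2 with the largest decrease among those at 5 CPM or more. It also added its most abundant gene. For 3 isotypes the 5 nearest profiles among non-tubulin genes were named as well. Alternatives were RLE scaling, DESeq2 1.42.0, no filter, leaving out Rn45s, limma 3.58.1 voom with sample quality weights, leaving out each library or the pair that stood apart, and a replicate block. Positions and promoters are from RefSeq GRCm38.p6 and exon overlaps from GENCODE vM21.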

Additional observations from a re-analysis of the deposited data

How the results depend on the processing

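Of the log2 changes recomputed under the alternatives, 699 kept their direction and side of the threshold, 25 gained a call, 25 lost one and 11 changed sign. Sample quality weights called 2008 genes in the averaged test, 1562 in females and 693 in males, with 8 isotypes averaged and 7 in males, and gave Tuba4a -0.12 in males. Leaving out Male SNI 2 and Female sham 2 called 1848, 986 and 698 genes, with 8 isotypes averaged and 6 in males; Tuba4a was then -0.25 in males, and the interaction was -0.18 for Tuba4a and -0.20 for Tubb2b. DESeq2 called 777 genes in females, 666 in males and 14 between the sexes in sham ganglia. Leaving out 1 library gave 626 to 1766 genes averaged, 155 to 1176 in females and 137 to 601 in males, with 4 to 6, 1 to 5 and 3 to 6 isotypes. The highest averaged and female counts were those without Male SNI 2, and the lowest those without Female SNI 3 (averaged), Female SNI 1 (females) and Male sham 1 (males). Over these fits, signs changed for 7 small values, whose ranges were -0.085 to 0.0074 for Tubb4a averaged (highest without Female sham 2), -0.0042 to 0.063 for Tubb3 in females (lowest without Female sham 3), -0.12 to 0.14 for Tuba1b in males (lowest without Male SNI 1), -0.25 to 0.23 for Tuba4a and -0.0049 to 0.074 for Tubb4a in males (lowest without Male SNI 2), -0.052 to 0.32 for the Tubb2b interaction (lowest without Female sham 2) and -0.0564 to 0.566 points for the Tubb2a share (lowest without Male SNI 3). The cause of these shifts was not tested. Tubb6, Tuba1c, Tubb2b and Tuba1a kept their averaged calls in each of the 12 fits without 1 library.

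Same-numbered SNI and sham libraries deviated together with correlations of -0.0794 to 0.132, so the numbers were not taken as pairs. With the replicate number as a block, 936, 437 and 295 genes and 5, 5 and 3 isotypes were called (averaged, females, males), and Tuba4a was -0.014 in males. For the shares, sign flips over the pairs allow no p below 0.0312, and Tuba4a, Tubb3 and Tubb5 had an exact p of 0.0625.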
